A study of Sus scrofa with 12 samples.

Results

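Valvular interstitial cells given TGF-β1 for 24 h after 2 passages on plastic were compared with the same kind of cell taken fresh from the valve. The comparison used 6 of the 12 arrays of the series, 3 of treated P2 cells and 3 of fresh P0 cells, chosen by their labels and not by any measured value. All cells came from aortic valves of adult pigs and were released with collagenase II. P0 cells went to RNA extraction without culture or treatment. P2 cells were grown in media 199 with 15% fetal bovine serum on tissue culture plastic, passaged 2 times and then held in the same medium with 1% serum, and all were collected on day 3. Of these, 3 arrays had no TGF-β1, 3 were given the porcine cytokine for 8 h and 3 for 24 h, each at 5 ng/ml. The labels give no genotype, breed or sex and call the 3 samples of each group biological replicates. They do not say whether a replicate was 1 animal or a pool, so the p-values measure the spread between these samples. No fresh cells were treated. Passage, plastic, low serum, time since collagenase release, the mix of cells and TGF-β1 therefore cannot be told apart in 24 h against P0. The untreated P2 arrays were used to set apart what followed the cytokine. A culture change here is any difference between untreated P2 and P0 cells. It also holds the time since collagenase release and the mix of cells, which these arrays cannot separate from culture.

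Valvular interstitial cells are the resident fibroblasts of the leaflet. At rest they keep the layered matrix of collagen, proteoglycan and elastic fibre, and in injury or on stiff plastic they can turn into contractile, matrix-producing myofibroblasts. TGF-β1 is the best known signal for that change: it binds a pair of receptor kinases that phosphorylate SMAD2 and SMAD3, which enter the nucleus with SMAD4 and switch on matrix, cytoskeletal and feedback genes.

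Values are log2 expression per probe set, so a difference of 1 is a doubling, and a value after ± is the standard error of a log2 difference from limma, 3 arrays against 3. A gene was called at a Benjamini-Hochberg adjusted p under 0.05 over all 17638 probe sets tested. A group mean under 4.58, the 95th percentile of the array's control probe sets, was read as no measured level, and such a fold is given as "at least". Array medians lay between 5.87 and 5.94, and arrays of 1 group correlated at 0.982 to 0.994. Group means of P0 and 24 h arrays differed more: those arrays correlated at 0.85 to 0.873, against 0.969 to 0.986 for untreated with 24 h arrays.

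The labelled cell type fitted the level of its markers, though most of them were lower in P2 cells than in P0. Of 15 fixed interstitial markers 13 were measured, and their mean lay at 12.3 to 12.4 in the P0 arrays, 11.5 to 11.9 in the untreated and 11.4 to 11.6 in the 24 h arrays. Of these 13, 8 were called lower and 1 higher at 24 h than in P0, and 8 and 1 untreated. Over all genes 26.1% were lower and 42.4% higher at 24 h than in P0. Other cells were also represented. Of 19 macrophage markers, 17 were lower at 24 h than in P0, and their mean went from 8.99 to 9.5 in P0 down to 6.18 to 6.76 at 24 h, with CD163, a scavenger receptor of macrophages, at 10.57, 11.25 and 11.04 in P0 and 3.94, 5.00 and 5.93 at 24 h. In bulk RNA fewer cells of a type and less RNA per cell cannot be told apart. Of 15 endothelial markers 5 were lower and 1, ERG, was higher, while VWF and FLT1 stayed under the control level in every group. The endothelial mean lay at 6.95 to 7.16 in P0 but at 5.23 to 6.61 at 24 h, and in each P2 group the array numbered 3 was the lowest. PECAM1, which joins endothelial cells, stood at 10.46, 11.05 and 11.15 in P0, 10.54, 10.93 and 8.67 untreated and 8.88, 9.29 and 7.17 at 24 h. Its fall from P0 to 24 h (-2.44 ± 0.736, adjusted p = 0.012) did not pass without 24 h replicate 3 (adjusted p = 0.0559), and against untreated cells it was -1.60 ± 0.736 (adjusted p = 0.223, and 0.00018 with replicate number as a block in the P2 arrays).

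**Figure D1:**
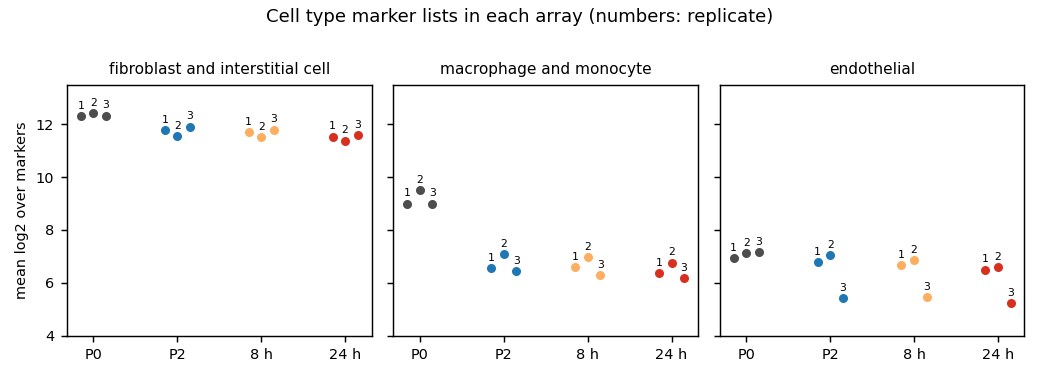
Mean log2 expression over the measured markers of 3 cell types (panels) in each of the 12 arrays (points, with the replicate number above), for P0, untreated P2, and 8 h and 24 h of TGF-β1. Macrophage markers are at 8.99 to 9.5 in P0 and at 6.18 to 6.76 at 24 h, and the P2 arrays numbered 3 have the lowest endothelial means.

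The 24 h arrays differed from P0 arrays at 11021 of 17638 probe sets, or 62.5%, with 6278 higher and 4743 lower. Among 6014 genes with a symbol of their own, 2548 (42.4%) were higher and 1568 (26.1%) lower, 1233 and 854 of them by at least 2-fold. The counts that follow are to be read against these shares, since most genes differed. The median gene lay 0.19 above P0. With 3 arrays a group, the standard error of a difference had a median of 0.159.

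The 8 genes named here had the largest fitted falls; 24 h means under the control level enter that order, so the places of SCARA5, FMO1 and TMEM100 in it are not measured. SCARA5, a ferritin receptor of resting fibroblasts, read 13.60, 13.57 and 13.23 in P0 and 3.69, 2.79 and 3.38 at 24 h, which is at least 471-fold lower (adjusted p = 2.92e-10). CCL4, a chemokine that recruits leukocytes, read 13.94, 14.10 and 13.72 in P0 and 5.69, 5.51 and 5.79 at 24 h (-8.26 ± 0.154, adjusted p = 1.9e-11). FMO1, a flavin monooxygenase, went from 10.65, 10.63 and 10.73 to 3.04, 2.77 and 2.76, under the control level in every 24 h array. C4BPA, which restrains complement, fell by 7.72 (SE 0.24), COMP, a cartilage matrix protein, by 7.68 (SE 0.882), and FOS, an immediate-early transcription factor, by 7.25 (SE 0.269). TMEM100, a target of BMP signalling in vessels, was at least 82-fold lower, and SPARCL1, an anti-adhesive matrix protein, fell by 7.12 (SE 0.447). These 8 genes were picked among called genes whose 24 h and P0 arrays did not overlap, so their separation follows from that rule.

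The 8 genes with the largest fitted rises follow, and P0 means under the control level leave the places of TMEM26, BASP1, RRM2 and MMP1 among them unmeasured. TMEM26, a membrane protein, was at least 34.9-fold higher, BASP1, a cortical membrane protein, at least 32-fold, RRM2, the ribonucleotide reductase subunit of S phase, at least 38.7-fold and MMP1, interstitial collagenase, at least 19.9-fold. SLC2A5, the fructose transporter, read 4.79, 4.76 and 4.67 in P0 and 11.20, 10.75 and 10.55 at 24 h (6.09 ± 0.76, adjusted p = 2.03e-05). AKR1CL1, an aldo-keto reductase, rose by 5.37 ± 0.217, VGLL3, a TEAD cofactor, by 5.39 ± 0.28 and PCLAF, a PCNA partner in DNA replication, by 5.20 ± 0.176.

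Which of these differences were already there before TGF-β1 was added? Between untreated P2 and P0 cells, 773 genes (12.9%) were called lower by at least 2-fold and are termed culture losses, and 1097 (18.2%) were called higher by as much and are termed culture gains. TGF-β1 for 24 h changed far fewer genes: 266 (4.42%) were higher and 341 (5.67%) lower than in untreated cells. Of the 773 losses, 53 (6.86%) were restored, meaning called higher at 24 h than untreated, 83 (10.7%) were deepened, and 637 (82.4%) were left, with no call. Of the 53 restored, 12 were no longer called lower than P0, and their median loss was undone by 85.6%, against 41.9% in the other 41. In the deepened genes the median went from -1.97 untreated to -3.01 at 24 h. Of the 637 left, 496 had a 95% interval for 24 h minus untreated that lay within 2-fold either way. In 114 of the 637, untreated cells were already under the control level, where a further fall cannot be measured. At 24 h, 752 of the 773 were still called lower than P0.

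Those shares depend on how the arrays are linked. Untreated and 24 h arrays of the same replicate number deviated together, and with that number as a block in the P2 arrays 108 losses were restored, 180 deepened and 485 left. All 53 restored genes and 82 of the 83 deepened were among those. With that block 609 of all 6014 genes were higher and 780 lower at 24 h than untreated. List counts with the block are to be read against these. The untreated arrays also serve on both sides, defining the losses and the response. When losses were taken from 8 h of TGF-β1 against P0, which shares no array with 24 h against untreated but has itself had the cytokine, 847 were found, of which 38 were restored, 126 deepened and 683 left. Without untreated replicate 1 the counts were 35 restored and 54 deepened, without untreated replicate 3 there were 35 restored, and without 24 h replicate 1 there were 30. Without the 3 P2 arrays numbered 3, which were low in endothelial markers, 29 were restored and 58 deepened.

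The restored genes began with the TGF-β pathway's own feedback and targets. PMEPA1, which traps SMAD2 and SMAD3 and so damps the signal, read 13.13, 13.23 and 13.03 in P0, 10.86, 11.53 and 10.24 untreated and 13.63, 13.43 and 13.67 at 24 h. Every 24 h array thus lay above every P0 array, although the difference from P0 was not called (0.45 ± 0.247, adjusted p = 0.133), and the rise over untreated cells was 6.5-fold (2.70 ± 0.247, adjusted p = 0.000147). SNAI1, a transcription factor of epithelial to mesenchymal transition, read 8.16, 8.19 and 7.83 in P0, 6.62, 6.35 and 5.61 untreated and 7.79, 7.46 and 7.61 at 24 h, so 76.3% of its loss was undone (24 h minus untreated 1.43 ± 0.225, adjusted p = 0.00302). LIF, a cytokine of the interleukin 6 family, read 5.47, 5.31 and 5.77 in P0, 3.95, 4.28 and 4.12 untreated and 8.06, 7.71 and 8.54 at 24 h. It was under the control level in untreated cells, rose at least 11.5-fold with TGF-β1 (adjusted p = 6.33e-06) and ended 6.01-fold above P0 (2.59 ± 0.232, adjusted p = 1.27e-06).

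Of 12 measured TGF-β induced genes 10 had been lost in culture, and these 3 together with BHLHE40 were restored. BHLHE40, a transcriptional repressor, recovered least, from 6.72, 6.40 and 5.99 to 7.23, 6.98 and 7.24 against 9.66, 9.96 and 9.68 in P0 (0.78 ± 0.173, adjusted p = 0.0164), and was not called without untreated replicate 3 or 24 h replicate 1 (adjusted p from 0.0568 to 0.0599) nor with the median over its probe sets (0.294, adjusted p = 0.197). The other 6 were left, among them TIMP3, an inhibitor of matrix proteases, which read 11.29, 11.79 and 11.49 in P0, 7.67, 7.31 and 9.16 untreated and 6.96, 6.43 and 8.44 at 24 h. It stayed 19-fold under P0 (-4.25 ± 0.569, adjusted p = 3.63e-05), and the response was -0.77 ± 0.569 (adjusted p = 0.478, and 0.0028 with the block, where it counts as deepened). With the block 6 of the 10 were restored. At 24 h 3 of the 12 were above P0, TPM1, LIF and TGFB1, and 7 were below it, with a median of -0.61 against -1.70 in untreated cells and 0.19 over all genes.

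The pathway's own components differed from P0 in both directions. Of 12 ligands, receptors and SMADs none was higher and 5 were lower in untreated P2 cells than in P0. At 24 h 6 were higher and 5 lower than in P0, where 42.4% and 26.1% of all genes were. Against untreated cells 5 rose and 1 fell, where 4.42% and 5.67% of all genes did. With the block these were 6 and 1, where 609 and 780 of all 6014 genes were called. TGFB1, the ligand itself, read 7.15, 7.29 and 7.26 in P0, 7.54, 7.50 and 6.65 untreated and 9.02, 8.37 and 8.46 at 24 h, with no call in culture (0.00) and 1.38 ± 0.249, adjusted p = 0.00608 with the cytokine. ENG, an accessory receptor, was 1.02 ± 0.27, adjusted p = 0.00578 against P0, and against untreated cells 0.68 ± 0.27 (adjusted p = 0.154, with the block 0.00945). SMAD3, which carries the signal, was lost in culture and left, at 9.28, 9.41 and 9.21 in P0, 6.96, 7.09 and 7.38 untreated and 6.65, 6.88 and 7.04 at 24 h (-0.29 ± 0.156, adjusted p = 0.311). FST, which sequesters activins, fell with TGF-β1 (-1.13 ± 0.209, adjusted p = 0.00679) and lay 3.47-fold under P0. NREP, a promoter of myofibroblast traits, was restored in part (1.29 ± 0.316, adjusted p = 0.0263), but not without untreated replicate 1 or 3 or 24 h replicate 1 or 2 (adjusted p from 0.0804 to 0.101). It then stood -0.87 from P0, a difference not called without P0 replicate 1 or 2 or 24 h replicate 3 (adjusted p from 0.0515 to 0.132).

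BMP signalling is the sister branch that induces ID genes. Of 9 genes 4 had been lost and none was restored, where 6.86% of all losses were. ID1, an inhibitor of differentiation factors, read 13.58, 13.70 and 13.56 in P0, 11.61, 10.49 and 12.16 untreated and 9.76, 9.16 and 10.90 at 24 h, a 12.8-fold gap to P0 (-3.67 ± 0.444, adjusted p = 1.56e-05). Its further difference of -1.48 ± 0.444 was called with the block alone (adjusted p = 0.0621 without and 0.0025 with it). TMEM100 was deepened (10.70, 10.94 and 11.19 in P0, 4.98, 4.42 and 6.62 untreated, 3.998, 3.51 and 3.98 at 24 h, at least 1.69-fold, adjusted p = 0.0467), a call lost without P0 replicate 1, 2 or 3 or untreated replicate 1 or 24 h replicate 1, 2 or 3 (adjusted p from 0.0608 to 0.131). ID2 was under the control level in every P2 group. BMPR1B, a type I BMP receptor, went the other way: its culture gain was raised further (1.91 ± 0.32, adjusted p = 0.00397), and at 24 h it was at least 7.76-fold above P0.

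Several secreted signals came back in part. PTHLH, parathyroid hormone-like hormone, read 10.89, 10.95 and 10.87 in P0, 6.69, 6.82 and 6.42 untreated and 9.24, 9.18 and 8.71 at 24 h, so 56.3% of a 19.1-fold loss was undone (2.40 ± 0.182, adjusted p = 4.31e-05). IGFBP5, which binds insulin-like growth factors, read 9.15, 9.13 and 8.89 in P0, 5.89, 6.37 and 6.45 untreated and 8.20, 8.15 and 8.74 at 24 h, a recovery of 75.4% (2.13 ± 0.186, adjusted p = 0.000128). C1QTNF3, a secreted C1q and TNF related protein, read 12.20, 12.09 and 12.27 in P0, 7.84, 7.44 and 6.68 untreated and 10.16, 9.45 and 8.90 at 24 h, a recovery of 44.9% (2.19 ± 0.326, adjusted p = 0.00209). In all 3 genes the 24 h arrays lay between the untreated and the P0 arrays without touching either. Their separation from the untreated arrays largely follows from picking the largest rises. In the list of growth factors and secreted signals, 3 of 10 losses were restored (LIF, PTHLH and IGFBP5) and 7 left, or 4 restored, 1 deepened and 5 left with the block. Those left included STC1, stanniocalcin, at 7.70, 7.94 and 8.496 in P0, 4.13, 4.71 and 3.36 untreated and 4.02, 4.50 and 3.39 at 24 h, and IGF2 at 10.49, 10.74 and 10.12 in P0, 7.74, 7.66 and 7.89 untreated and 7.68, 7.62 and 7.20 at 24 h, both far from P0 (at least 11-fold lower, and -2.95 ± 0.167). HBEGF, an EGF family ligand, differed by 0.75 ± 0.278, which was called with the block alone (adjusted p = 0.127 without and 0.0422 with it).

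Proteoglycan and hyaluronan genes split by gene. SHAS2, a hyaluronan synthase, read 9.15, 8.86 and 9.47 in P0, 7.01, 6.70 and 7.19 untreated and 8.76, 9.34 and 9.26 at 24 h, and its 24 h arrays overlapped the P0 arrays after a recovery of 98.1% (2.15 ± 0.191, adjusted p = 0.000135). ASPN, asporin, a small leucine-rich proteoglycan that binds TGF-β, read 12.74, 13.01 and 12.66 in P0, 11.28, 10.74 and 11.15 untreated and 12.97, 12.58 and 12.77 at 24 h and also overlapped P0 (98%, 1.71 ± 0.182, adjusted p = 0.000314). The difference from P0 was then -0.04 for SHAS2, with a 95% interval of -0.46 to 0.38, and -0.04 for ASPN (-0.43 to 0.36). The 6 other losses of this list were left, though with the block 1, DCN (named after its value was seen), was deepened (-0.28, adjusted p = 0.174 without and 0.0493 with it). VCAN, versican, the large proteoglycan of the spongy layer, read 14.16, 14.00 and 14.32 in P0, 11.37, 11.83 and 11.70 untreated and 11.64, 12.04 and 11.48 at 24 h, with a 95% interval of -0.34 to 0.52 for the response. HAPLN1, the link protein that fastens proteoglycans to hyaluronan, read 10.18, 10.14 and 10.11 in P0, 6.89, 5.71 and 7.04 untreated and 6.70, 5.84 and 6.46 at 24 h (-0.94 to 0.51). ACAN, aggrecan, read 8.47, 8.46 and 8.49 in P0, 4.79, 4.67 and 6.21 untreated and 5.30, 4.67 and 6.03 at 24 h (-1.09 to 1.31). HAS3, another hyaluronan synthase, stayed at least 7.51-fold under P0.

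Collagen and matricellular genes changed in both directions. PCOLCE2, which speeds removal of the collagen C-propeptide, read 13.55, 13.74 and 13.74 in P0, 11.51, 10.99 and 11.47 untreated and 12.78, 12.60 and 12.93 at 24 h, a recovery of 61.3% (1.44 ± 0.156, adjusted p = 0.00033). TNC, tenascin C of healing and developing matrix, had risen in culture and rose again, at 7.68, 7.88 and 7.97 in P0, 9.67, 9.91 and 9.82 untreated and 11.64, 11.33 and 11.74 at 24 h, which left it 13.2-fold above P0 (3.73 ± 0.129, adjusted p = 9.27e-10; 24 h minus untreated 1.77 ± 0.129, adjusted p = 3.91e-05). FN1, fibronectin, had fallen slightly in culture and read 14.81, 15.00 and 14.94 in P0, 14.55, 14.68 and 14.42 untreated and 15.21, 15.20 and 15.07 at 24 h, so TGF-β1 raised it by 0.61 ± 0.112, adjusted p = 0.00654, to a level not called against P0 (0.24, adjusted p = 0.077). A dimmer FN1 probe set had means of 7.36 in P0, 8.19 untreated and 9.77 at 24 h, and the faintest lay under the control level in every group. COL8A1 was raised further (0.63 ± 0.153, adjusted p = 0.0259), but not without untreated replicate 3 or 24 h replicate 1 or 3 (adjusted p from 0.0664 to 0.104) nor with the median over its probe sets (0.445, adjusted p = 0.182). COL5A1 (log2 difference 0.97) and the cross-linking enzyme LOX (0.60), both named after their values were seen, rose over untreated cells, LOX not without P0 replicate 3 or untreated replicate 1, 2 or 3 or 24 h replicate 1 or 2 (adjusted p from 0.0527 to 0.154). THBS2, an angiogenesis inhibitor also named afterwards, was restored in part (0.91 ± 0.196, adjusted p = 0.0148), but not without untreated replicate 1 or 24 h replicate 1 (adjusted p from 0.0611 to 0.0626).

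POSTN, periostin, kept most of its loss (13.74, 13.68 and 13.88 in P0, 12.66, 12.51 and 12.50 untreated and 12.89, 13.58 and 12.65 at 24 h; 0.48 ± 0.199, adjusted p = 0.169). COL5A3 was -2.20 from P0, with a response of 0.63 ± 0.563 (adjusted p = 0.577, with the block 0.022). COL1A2 read 9.23, 9.55 and 9.69 in P0, 9.17, 9.24 and 8.74 untreated and 9.43, 9.65 and 9.22 at 24 h on its brighter probe set (-0.06 against P0; 0.38 ± 0.169 against untreated, adjusted p = 0.201, with the block 0.0258). Its dimmer probe set had means of 4.52 in P0, under the control level, 6.74 untreated and 7.14 at 24 h. Most of that rise was thus there before TGF-β1, and its response was not called (0.4, limma, adjusted p = 0.313). COL3A1 was dim, at 5.75, 5.31 and 6.18 in P0, 5.79, 5.601 and 6.41 untreated and 4.31, 4.74 and 5.31 at 24 h; its fall of -1.14 against untreated cells was not called without untreated replicate 1 or 3 or 24 h replicate 1 or 2 (adjusted p from 0.0678 to 0.133), nor its -0.96 against P0 without P0 replicate 3 or 24 h replicate 1 (adjusted p from 0.0579 to 0.0597). Among 18 collagen and processing genes 9 were above and 3 below P0, where 42.4% and 26.1% of all genes were. Against untreated cells 4 had risen and 1 fallen, where 4.42% and 5.67% of all genes had. With the block these were 10 and 1, where 609 and 780 of all 6014 genes were called. Of the 14 matricellular genes 4 were above and 9 below P0, and of their 8 losses 1 was restored, 1 deepened and 6 left (2, 1 and 5 with the block). The 1 deepened, SPARCL1, changed by -1.61 ± 0.447 and was not called without P0 replicate 1, 2 or 3 or untreated replicate 1 or 3 or 24 h replicate 1 or 2 (adjusted p from 0.0623 to 0.165).

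Among the remaining restored genes, RNF128, an E3 ubiquitin ligase, read 8.00, 8.66 and 8.09 in P0, 4.34, 4.96 and 3.70 untreated and 6.001, 6.99 and 6.39 at 24 h, at least 3.67-fold above an untreated mean under the control level (adjusted p = 0.00689). KCNJ5, an inward rectifier potassium channel subunit, read 6.84, 6.13 and 6.12 in P0, 4.44, 4.94 and 4.92 untreated and 6.60, 5.98 and 6.35 at 24 h, and its 24 h arrays overlapped those of P0 (1.54 ± 0.279, adjusted p = 0.0061). AQP3, a water and glycerol channel and a culture loss of at least 187-fold, was left in the reported fit and restored with the block alone. It read 11.95, 11.59 and 12.85 in P0, 4.74, 3.64 and 5.24 untreated and 6.33, 5.35 and 7.69 at 24 h. Each P2 pair of arrays with the same number rose, and the call rests on that pairing: adjusted p was 0.104 without the block and 0.000566 with it, for a response of at least 3.66-fold. It remained 50.9-fold under P0.

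**Figure D2:**
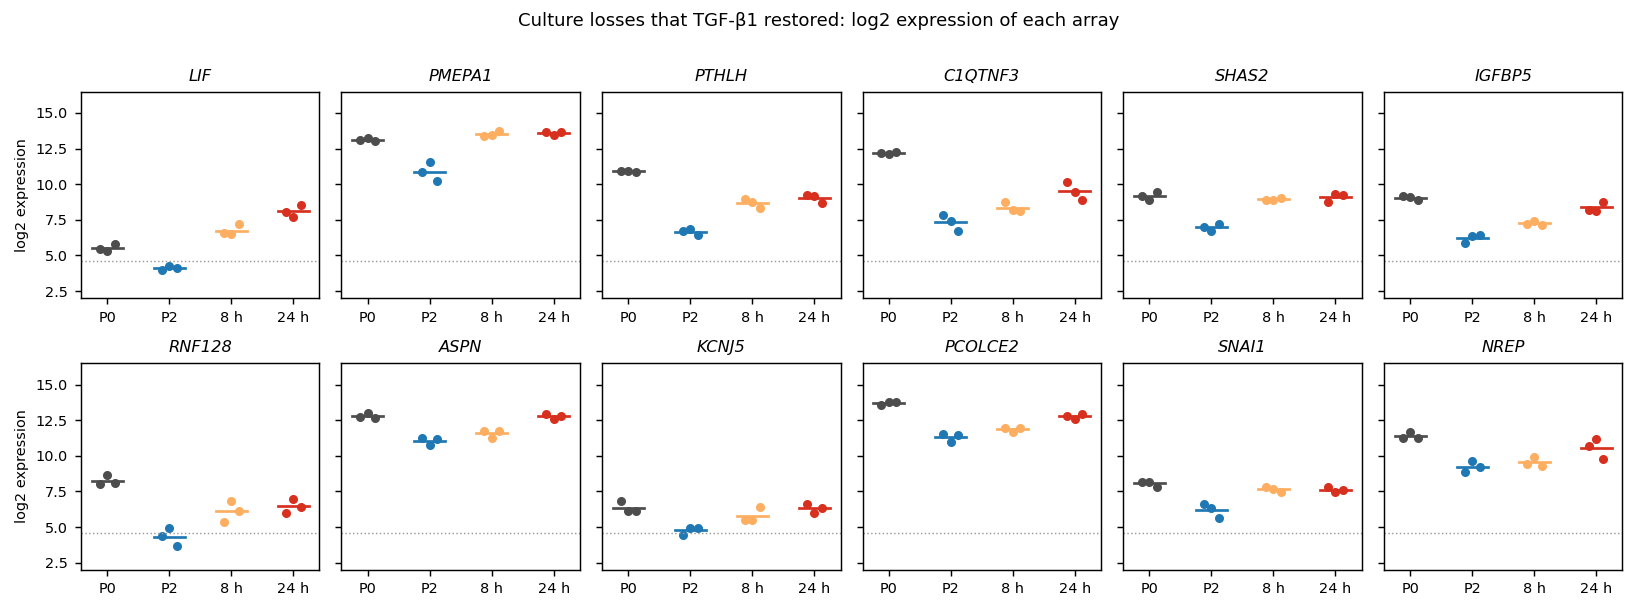
Log2 expression of the 12 restored culture losses with the largest rise over untreated cells, 1 panel per gene. Points are the 3 arrays of P0, untreated P2, and 8 h and 24 h of TGF-β1, bars are group means, and the dotted line is the control level of 4.58. LIF ends above P0, SHAS2, ASPN and KCNJ5 overlap P0, and PTHLH, IGFBP5 and C1QTNF3 stop between.

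The 12 deepened losses with the largest falls were surface proteins, enzymes and inflammatory genes. THBD, thrombomodulin, which turns thrombin into an anticoagulant, read 9.70, 10.40 and 10.49 in P0, 6.59, 6.37 and 7.16 untreated and 4.55, 4.17 and 4.29 at 24 h. It was at least 48.9-fold under P0 and at least 4.35-fold under untreated cells (adjusted p = 0.000267), and all 24 h arrays lay under the control level. Endothelial cells also make THBD, and the endothelial mean was 5.42 to 7.06 untreated and 5.23 to 6.61 at 24 h; its part in this fall was not tested. PDPN, podoplanin, a mucin-like surface protein, read 11.33, 11.36 and 10.85 in P0, 8.85, 8.66 and 9.50 untreated and 6.70, 6.26 and 7.63 at 24 h (-2.14 ± 0.354, adjusted p = 0.00379). CAVIN2, a coat protein of caveolae, read 11.28, 11.28 and 11.11 in P0, 8.81, 8.94 and 8.20 untreated and 7.18, 6.63 and 6.46 at 24 h (-1.89 ± 0.257, adjusted p = 0.0012). RGCC, a cell cycle regulator induced by complement, read 13.19, 12.91 and 13.09 in P0, 9.06, 8.60 and 8.54 untreated and 7.09, 6.74 and 7.41 at 24 h (-1.65 ± 0.215, adjusted p = 0.000936). In all 12 deepened genes the untreated and 24 h arrays did not overlap. They were picked for large called falls in this comparison, so that separation largely follows from the rule.

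Enzymes were the next group. ALDH1A1, which makes retinoic acid, read 11.91, 12.43 and 12.08 in P0, 8.63, 8.04 and 9.82 untreated and 6.36, 6.02 and 7.11 at 24 h (-2.34 ± 0.411, adjusted p = 0.00521). EPHX1, microsomal epoxide hydrolase, fell by 1.41 in culture, and at 9.69, 9.81 and 10.08 in P0, 8.53, 7.77 and 9.05 untreated and 5.92, 5.97 and 6.55 at 24 h lost more with TGF-β1 (-2.31 ± 0.312, adjusted p = 0.00117). SELENBP1, a selenium-binding methanethiol oxidase, read 11.21, 11.23 and 11.06 in P0, 8.04, 7.06 and 8.06 untreated and 6.24, 5.94 and 5.36 at 24 h (-1.87 ± 0.313, adjusted p = 0.00396). CDO1, cysteine dioxygenase, read 11.56, 12.09 and 12.002 in P0, 8.52, 7.74 and 9.84 untreated and 6.06, 5.83 and 7.02 at 24 h (-2.39 ± 0.535, adjusted p = 0.0174), not called without untreated replicate 3 or 24 h replicate 1 or 2 (adjusted p from 0.0628 to 0.0641). ADAMTS1, a protease of proteoglycans, read 13.64, 13.54 and 13.45 in P0, 10.70, 9.37 and 12.46 untreated and 7.85, 7.50 and 8.46 at 24 h. It spread widely in untreated cells, and its fall of -2.90 ± 0.661 was not called without untreated replicate 1 or 3 or 24 h replicate 1 or 2 (adjusted p from 0.0521 to 0.0661). ANG, angiogenin, read 10.78, 10.79 and 10.75 in P0, 8.83, 8.57 and 9.07 untreated and 7.27, 6.82 and 7.14 at 24 h (-1.75 ± 0.161, adjusted p = 0.000153). FGL2, a fibrinogen-like prothrombinase, read 11.63, 11.93 and 12.19 in P0, 8.82, 8.72 and 8.86 untreated and 6.51, 6.55 and 5.85 at 24 h (-2.50 ± 0.202, adjusted p = 7.41e-05). FAM26F, an interferon-responsive membrane protein, read 9.70, 8.82 and 8.88 in P0, 7.80, 7.63 and 7.66 untreated and 5.85, 5.96 and 4.97 at 24 h (-2.10 ± 0.267, adjusted p = 0.000848).

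In the oxidoreductase and detoxification list 12 of 24 genes fell against untreated cells and none rose, against 5.67% and 4.42% of all genes. Of its 9 losses 4 were deepened and none restored, where 10.7% and 6.86% of all losses were. Of its 5 gains 4 were reversed, where 8.2% of all gains were. With the block 15 genes fell, 6 losses were deepened and 3 left. Over all 6014 genes 780 fell with the block, and 23.3% of all losses were deepened and 62.7% left. Without untreated replicate 3, 2 gains were reversed. SOD2, the mitochondrial superoxide dismutase, was deepened, at 13.97, 13.90 and 13.83 in P0, 12.62, 12.66 and 13.15 untreated and 10.82, 11.17 and 11.59 at 24 h (-1.61 ± 0.205, adjusted p = 0.000848). The reversed gains included MGST1, microsomal glutathione transferase, at 10.39, 10.74 and 10.23 in P0, 12.61, 12.37 and 12.60 untreated and 11.14, 10.93 and 10.48 at 24 h (-1.67 ± 0.186, adjusted p = 0.000367), which was no longer called against P0 (0.40, adjusted p = 0.0792). They also included AKR1CL1, at 6.10, 6.37 and 6.97 in P0, 13.78, 13.59 and 13.61 untreated and 11.90, 12.17 and 11.50 at 24 h (-1.81 ± 0.217, adjusted p = 0.000623), still 41.5-fold above P0. Before and after TGF-β1, 13 of the list were under P0 at 24 h and 12 untreated, while those above fell from 8 to 4.

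**Figure D3:**
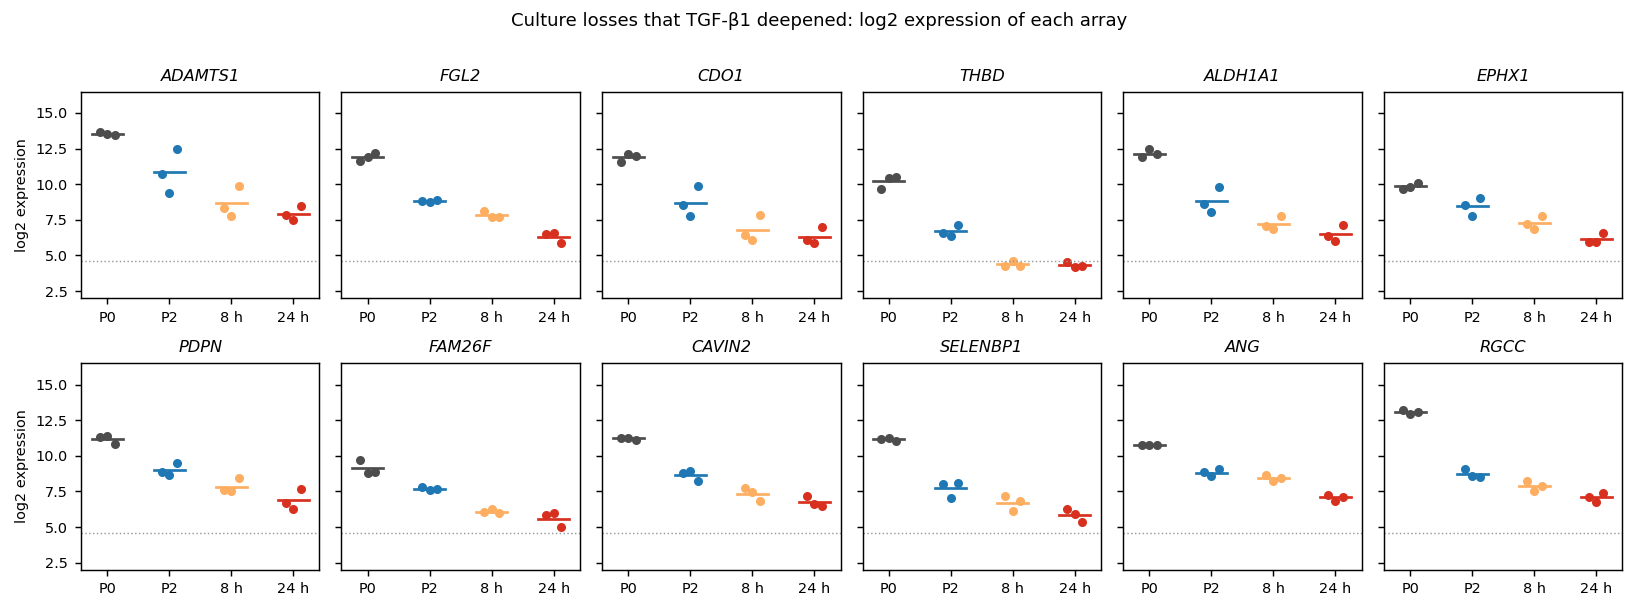
Log2 expression of the 12 deepened culture losses with the largest fall against untreated cells, drawn as for the restored genes. Values step down from P0 to untreated P2 and again to 24 h of TGF-β1, and all 3 THBD arrays at 24 h lie under the control level of 4.58.

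Genes of resting fibroblasts were far under P0 before and after TGF-β1. Of 29 measured, 25 were lower at 24 h than in P0 and 2, IGF1 and CXCL14, were higher, with a median of -3.70 against -3.06 in untreated cells. Of their 25 losses 2 were restored (PCOLCE2 and IGFBP5), 6 deepened and 17 left, or 3, 7 and 15 with the block, where 6.86%, 10.7% and 82.4% of all losses fell in these classes. The deepened were THBD, ANG and FBLN1 and, named after their values were seen, CD34, C7 and GPX3. FBLN1, fibulin 1, changed by -0.76 ± 0.183 (adjusted p = 0.0241), not called without untreated replicate 1 or 3 or 24 h replicate 2 (adjusted p from 0.0825 to 0.0957). CD34 was not called without P0 replicate 1, 2 or 3 or untreated replicate 1, 2 or 3 or 24 h replicate 1 or 2 (adjusted p from 0.0523 to 0.152), C7 not without P0 replicate 1, 2 or 3 or untreated replicate 1 or 3 or 24 h replicate 1 or 3 (adjusted p from 0.059 to 0.165) nor with the block (adjusted p = 0.0595), and GPX3 not without untreated replicate 3 (adjusted p = 0.0544). Leaving out 1 array in turn gave 2 to 5 deepened, the fewest without untreated replicate 3.

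The members left had no called response. SCARA5 read 3.33, 3.33 and 4.43 untreated and 3.69, 2.79 and 3.38 at 24 h, both under the control level. CLEC3B, tetranectin, read 11.42, 11.57 and 11.71 in P0, 5.47, 5.34 and 5.22 untreated and 5.41, 5.24 and 5.04 at 24 h, with a 95% interval of -0.45 to 0.21 for the response. TNXB, tenascin X, read 11.41, 12.01 and 11.43 in P0, 6.45, 6.32 and 6.67 untreated and 6.55, 6.35 and 6.74 at 24 h (-0.35 to 0.48). MFAP5, a microfibril protein, read 10.64, 10.52 and 10.82 in P0, 7.10, 7.43 and 7.39 untreated and 7.04, 7.20 and 7.16 at 24 h (-0.50 to 0.15). CXCL12, a homing chemokine, read 11.56, 11.58 and 11.88 in P0, 6.30, 6.77 and 6.34 untreated and 6.26, 6.35 and 5.78 at 24 h (-0.75 to 0.07). TCF21, a transcription factor of cardiac fibroblasts, read 12.05, 11.97 and 11.47 in P0, 7.79, 7.38 and 8.51 untreated and 7.76, 7.34 and 8.32 at 24 h (-0.78 to 0.60). These intervals lie within a 2-fold change either way. CILP, a cartilage layer protein, stayed at least 71.7-fold under P0. COMP read 4.19, 4.18 and 6.68 untreated and 4.62, 4.17 and 6.87 at 24 h, so in both groups the array numbered 3 was well above the other 2.

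Complement genes were lower than P0 in untreated and treated cells. Of 17 members 16 were lower at 24 h than in P0 and none higher (median -3.26, against -2.68 untreated). Of 14 losses none was restored, 4 deepened and 10 left (6.86%, 10.7% and 82.4% of all losses). Those 4, which were picked out with their values in view, comprised the C1 proteases C1R (-1.21 ± 0.228, adjusted p = 0.00744) and C1S (-1.28 ± 0.203, adjusted p = 0.00302), C7 (-0.98; with the block adjusted p = 0.0595) and the C1 inhibitor SERPING1 (-0.78). C7 was not called without P0 replicate 1, 2 or 3 or untreated replicate 1 or 3 or 24 h replicate 1 or 3 (adjusted p from 0.059 to 0.165), and SERPING1 not without untreated replicate 1 or 3 or 24 h replicate 1 or 2 (adjusted p from 0.0517 to 0.0919). C3, the central component, read 14.22, 13.93 and 14.13 in P0, 8.70, 9.37 and 9.89 untreated and 8.18, 8.73 and 8.98 at 24 h, with a response of -0.69 ± 0.327 (adjusted p = 0.239, with the block 0.00369). CFD, the protease that starts the alternative pathway, read 12.86, 13.02 and 13.42 in P0, 8.71, 8.57 and 9.16 untreated and 7.64, 7.39 and 8.62 at 24 h (-0.93 ± 0.297, adjusted p = 0.079, with the block 0.00393). C4A read 10.84, 11.49 and 11.93 in P0, 5.07, 5.09 and 6.28 untreated and 5.22, 5.06 and 5.55 at 24 h and C4BPA 13.19, 13.92 and 13.18 in P0, 5.56, 6.04 and 6.30 untreated and 5.59, 5.86 and 5.68 at 24 h, with responses of -0.20 ± 0.34, adjusted p = 0.8 and -0.25 ± 0.24, adjusted p = 0.599. C1QA and C1QC, which macrophages make, are in this list too, and the macrophage markers fell with it from P0; their part in these falls was not tested. Against untreated cells 1 of the 19 macrophage markers, CD14 (named after its value was seen), was lower, or 5 with the block. CD14 was not called without untreated replicate 1 (adjusted p = 0.0561).

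More cytokine and NF-kB losses were deepened than restored, which also held over all losses. All 28 were called against P0 at 24 h, 25 lower and 3 higher, where 22 were lower and 4 higher untreated. Of 20 losses 1 was restored, 7 deepened and 12 left (3, 10 and 7 with the block). Over all losses the shares were 6.86%, 10.7% and 82.4% (14%, 23.3% and 62.7% with the block). Without untreated replicate 1, 3 were deepened. The macrophage markers, with 17 of 19 lower than P0, moved with this list. Neither their part nor that of the collagenase release of P0 cells was tested. The 1 restored, ICAM1, a leukocyte adhesion molecule named after its value was seen, read 12.56, 12.05 and 12.20 in P0, 9.45, 9.79 and 9.04 untreated and 10.81, 10.54 and 10.33 at 24 h (1.13 ± 0.23, adjusted p = 0.0105). IL6, interleukin 6, was deepened, at 13.74, 13.15 and 13.70 in P0, 11.82, 11.80 and 11.06 untreated and 10.50, 10.46 and 10.57 at 24 h (-1.05 ± 0.221, adjusted p = 0.0124; not called without untreated replicate 1 (adjusted p = 0.0544)). CCL8, a monocyte chemokine, was deepened too, at 12.48, 13.20 and 12.06 in P0, 6.86, 7.31 and 6.59 untreated and 5.87, 5.92 and 5.18 at 24 h (-1.26 ± 0.283, adjusted p = 0.0177; not called without untreated replicate 2 or 24 h replicate 3 (adjusted p from 0.0565 to 0.0572)). CCL4 and CCL3L1, both macrophage inflammatory proteins, had lost nearly all their signal in culture, and their further differences of -0.53 ± 0.154 and -0.42 ± 0.124 were called with the block alone (adjusted p = 0.0544 and 0.0578 without, 0.0421 and 0.0217 with it). TNF was under the control level in untreated and treated cells.

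VCAM1, another leukocyte adhesion molecule, was not called in culture and fell with TGF-β1, at 14.05, 13.91 and 14.19 in P0, 14.09, 13.78 and 14.23 untreated and 11.30, 11.31 and 10.39 at 24 h (8.19-fold, -3.03 ± 0.223, adjusted p = 3.91e-05). The 3 genes above P0 were CXCL14, SAA2 and AMCF-II. AMCF-II, a neutrophil chemokine, was also a culture gain that was reversed, at 9.70, 8.94 and 9.73 in P0, 13.63, 14.23 and 14.35 untreated and 11.40, 11.77 and 12.09 at 24 h (-2.32 ± 0.265, adjusted p = 0.000422), with 50.2% of the gain undone. With the median over its probe sets this response was -0.63 and not called (adjusted p = 0.0833).

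Immediate-early and heat shock genes were mostly lower than P0 in untreated and treated cells. Of 28, 26 were lower at 24 h than in P0 and 1, CYR61, higher, the same numbers as in untreated cells. P0 cells had been released with collagenase II and not cultured, and the part of that release in their levels was not tested. Of 24 losses 2 were restored, 1 deepened and 21 left (4, 3 and 17 with the block), close to the 6.86%, 10.7% and 82.4% of all losses. FOS read 14.80, 14.65 and 14.56 in P0, 7.75, 7.38 and 7.87 untreated and 7.25, 7.04 and 7.97 at 24 h. ZFP36, which destabilises cytokine messages, read 13.45, 13.497 and 13.67 in P0, 7.52, 7.49 and 7.64 untreated and 7.54, 7.27 and 7.58 at 24 h. NR4A3, an orphan nuclear receptor, had 12.86, 12.56 and 12.66 in P0, 6.93, 6.78 and 6.80 untreated and 7.27, 6.70 and 7.04 at 24 h. HSPA6, an inducible chaperone, read 12.77, 12.67 and 11.95 in P0, 5.58, 5.73 and 5.80 untreated and 5.78, 5.79 and 5.74 at 24 h. The 95% intervals of the response were -0.84 to 0.34, -0.38 to 0.20, -0.14 to 0.48 and -0.35 to 0.48. The 2 restored and the 1 deepened, named after their values were seen, were GADD45B (0.98 ± 0.181, adjusted p = 0.00685), BTG2 (0.66) and JUN (-0.54). BTG2 was not called without untreated replicate 1 or 3 or 24 h replicate 1, 2 or 3 (adjusted p from 0.0581 to 0.146), and JUN not without P0 replicate 1, 2 or 3 or untreated replicate 1 or 2 or 24 h replicate 1, 2 or 3 (adjusted p from 0.0531 to 0.115).

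**Figure D4:**
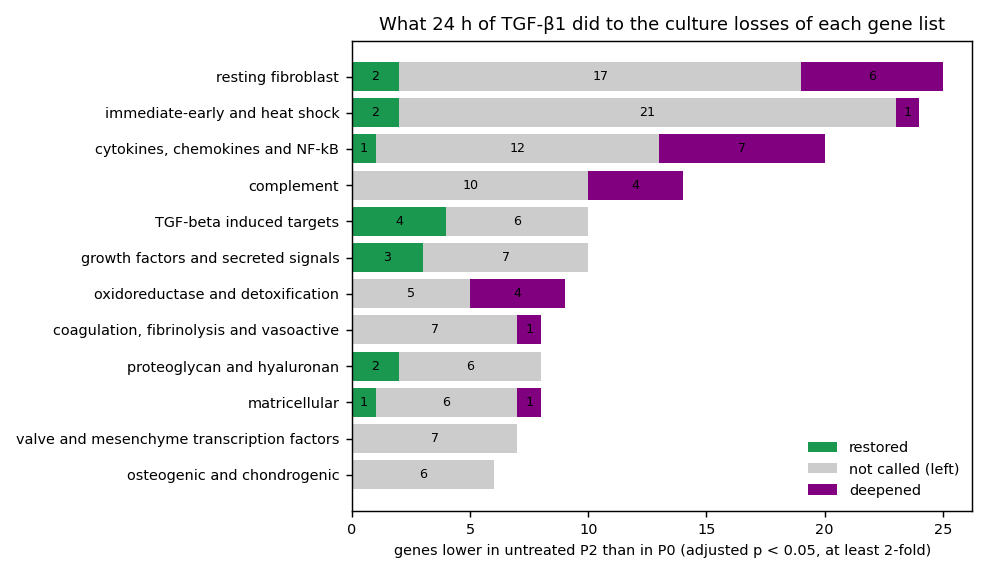
Number of culture losses (horizontal axis, genes called at least 2-fold lower in untreated P2 than in P0) in each gene list with at least 5, split into those restored, left and deepened at 24 h of TGF-β1. TGF-β induced targets have 4 of 10 restored, complement has 0 of 14 restored and 4 deepened, and 21 of 24 immediate-early and heat shock losses are left.

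Of 7 losses among transcription factors of valve and mesenchyme none was restored or deepened, or 1 and 1 with the block, where 82.4% of all losses were left. KLF4 read 13.28, 13.10 and 13.03 in P0, 10.35, 10.18 and 10.34 untreated and 10.36, 9.81 and 10.47 at 24 h, and TBX2 8.97, 8.57 and 8.31 in P0, 5.03, 5.55 and 4.84 untreated and 5.20, 5.43 and 5.65 at 24 h (0.28 ± 0.255, adjusted p = 0.577). SOX9, the driver of cartilage-like matrix, read 7.63, 7.39 and 7.70 in P0, 5.47, 5.83 and 5.83 untreated and 5.63, 5.69 and 6.32 at 24 h (0.17 ± 0.207, adjusted p = 0.703). The 6 losses among 13 osteogenic and chondrogenic genes were left as well, except that with the block 1, MGP (named after its value was seen), was restored (0.31, adjusted p = 0.173 without and 0.0424 with it). CHI3L1, a chitinase-like glycoprotein, had gained in culture and read 6.47, 7.30 and 8.21 in P0, 10.79, 11.36 and 9.23 untreated and 11.82, 12.33 and 9.97 at 24 h (0.91 ± 0.697, adjusted p = 0.497, with the block 0.00522). Of 5 elastic fibre genes 4 were below P0 at 24 h, including MFAP5 (-3.53), FBLN1 (-3.71) and MFAP2 (-1.77), and FBN1, fibrillin 1, was above it (0.62 ± 0.138, adjusted p = 0.00185).

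Genes that mark a myofibroblast were above P0 before TGF-β1 was given. ACTA2, smooth muscle actin, read 12.63, 12.02 and 12.65 in P0, 15.24, 15.36 and 15.38 untreated and 15.14, 15.35 and 15.25 at 24 h, 7.02-fold above P0 (2.81 ± 0.159, adjusted p = 3.22e-08), with a 95% interval of -0.43 to 0.27 for the response. TAGLN, transgelin, read 13.75, 13.51 and 14.10 in P0, 14.83, 14.74 and 14.75 untreated and 14.86, 14.79 and 14.85 at 24 h (-0.24 to 0.35). CNN1, calponin 1, read 10.46, 10.04 and 10.13 in P0, 11.56, 11.73 and 11.61 untreated and 11.88, 11.98 and 11.76 at 24 h (-0.03 to 0.51). TPM1, tropomyosin 1, read 12.43, 11.78 and 12.22 in P0, 15.34, 15.34 and 15.18 untreated and 15.48, 15.44 and 15.39 at 24 h (-0.16 to 0.46). ACTA2 and TPM1 were near the top of the array's range in P2 cells, where a further rise may not be measured. Of 28 contractile and cytoskeletal genes 20 were above P0 at 24 h and 3 below, where 18 and 3 were untreated, and the medians were 1.13 and 0.94. Over all genes 42.4% were above P0 at 24 h and 26.1% below. Against untreated cells 1 rose and 1 fell (2 and 4 with the block), where 4.42% and 5.67% of all genes did. CSRP2, a LIM protein of smooth muscle, was the 1 that rose, at 11.41, 11.07 and 11.24 in P0, 11.13, 11.38 and 10.48 untreated and 12.78, 13.14 and 12.04 at 24 h (1.66 ± 0.302, adjusted p = 0.00627), with no call in culture. FHL1, named after its value was seen, was the 1 that fell (-0.55), not called without untreated replicate 3 or 24 h replicate 2 or 3 (adjusted p from 0.0586 to 0.0961). ACTG2, enteric smooth muscle actin, went down from 11.91, 12.31 and 11.94 in P0 to 9.36, 9.33 and 9.44 at 24 h on its brighter probe set (-2.68 ± 0.24, adjusted p = 1.25e-06). On its other it went up, from 5.51 to 8.24, so its direction is not settled here. Untreated means were 10.16 on the brighter and 8.3 on the other. By ACTA2, TAGLN and CNN1 the name myofibroblast applied to untreated as well as treated P2 cells.

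Of 14 integrin and focal adhesion genes 3 rose over untreated cells and none fell, or 4 and 3 with the block. Over all 6014 genes 4.42% rose and 5.67% fell, or 609 and 780 genes with the block. The 3 that rose are named next. These were ITGA5 and, named after their values were seen, ITGAV and CDH11. ITGAV was not called without P0 replicate 1, 2 or 3 or untreated replicate 1, 2 or 3 or 24 h replicate 1 or 2 (adjusted p from 0.0556 to 0.162), and CDH11 not without untreated replicate 1 or 3 or 24 h replicate 1 or 2 (adjusted p from 0.0571 to 0.0824). ITGA5, the fibronectin receptor subunit, read 7.98, 7.86 and 8.10 in P0, 9.05, 9.39 and 7.89 untreated and 10.89, 10.55 and 10.36 at 24 h (1.82 ± 0.32, adjusted p = 0.00514), and at 24 h it was 6.15-fold above P0. ITGA8 had gained in culture and was at least 25.5-fold above P0; its response was -0.65 ± 0.199 (adjusted p = 0.0665, with the block 0.00418).

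Of the 1097 culture gains 90 (8.2%) were reversed, 46 (4.19%) raised further and 961 left, and 1069 were still above P0. With the block 182 were reversed and 123 raised. Fewer were reversed without untreated replicate 1 (48) or 3 (49) or without 24 h replicate 1 (50) or 2 (53), and fewer raised without 24 h replicate 1 (28) or 3 (30). KITLG, the KIT ligand, read 3.77, 4.10 and 4.30 in P0, 6.78, 6.58 and 7.06 untreated and 4.80, 4.99 and 4.99 at 24 h, a fall of most of its gain (-1.88 ± 0.172, adjusted p = 0.000147) with P0 under the control level. PEG10, a retrotransposon-derived imprinted gene, read 6.97, 6.89 and 6.96 in P0, 9.03, 9.35 and 9.31 untreated and 7.36, 7.58 and 7.65 at 24 h (74.3%, -1.70 ± 0.129, adjusted p = 4.31e-05). PKIG, an inhibitor of protein kinase A, read 9.42, 9.55 and 9.27 in P0, 10.93, 10.25 and 10.74 untreated and 9.06, 8.93 and 8.94 at 24 h (-1.66 ± 0.169, adjusted p = 0.00027) and ended under P0 (-0.43), a difference not called without P0 replicate 1 or 2 or 24 h replicate 1, 2 or 3 (adjusted p from 0.0561 to 0.126).

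Cell cycle genes stayed high with some decline. Of 30, 25 were above P0 at 24 h and 1, GMNN, below (medians 3.38 untreated and 2.75 at 24 h). Over all genes 42.4% were above and 26.1% below. Against untreated cells 10 of the 30 were lower, or 21 with the block. Over all 6014 genes 5.67% were lower, or 780 genes with the block. Of 25 gains 9 were reversed in part, and 20 were reversed with the block. Over all 1097 gains 8.2% were reversed, or 182 genes with the block. On leaving out 1 array between 1 and 19 of the 25 were reversed, the fewest without untreated replicate 3. TOP2A, the topoisomerase of dividing cells, read 5.57, 5.89 and 5.66 in P0, 10.60, 10.32 and 10.92 untreated and 9.48, 9.66 and 10.19 at 24 h (-0.84 ± 0.198, adjusted p = 0.0229; not called without untreated replicate 1 or 3 or 24 h replicate 1 or 2 (adjusted p from 0.0656 to 0.0975)). PCLAF read 5.49, 5.10 and 5.38 in P0, 11.25, 11.12 and 11.59 untreated and 10.15, 10.71 and 10.71 at 24 h (-0.80 ± 0.176, adjusted p = 0.0166; not called without untreated replicate 3 or 24 h replicate 1 (adjusted p from 0.0562 to 0.0733) nor with the median over its probe sets (-0.458, adjusted p = 0.0994)). RRM2 differed by -0.81 ± 0.234 (adjusted p = 0.0547, with the block 0.0103).

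Cholesterol synthesis genes stayed above P0 but were partly reversed. Of 12 genes 10 were above P0 at 24 h and 1, HSD17B7, below, where 42.4% and 26.1% of all genes were. Against untreated cells 8 were lower and none higher (10 and none with the block). Over all 6014 genes 5.67% were lower and 4.42% higher (780 and 609 genes with the block). Of 10 gains 6 were reversed in part (8 with the block), where 8.2% of all 1097 gains were reversed (182 with the block). On leaving out 1 array between 2 and 7 were reversed, the fewest without untreated replicate 1. FDPS, farnesyl diphosphate synthase, read 7.87, 7.73 and 7.92 in P0, 12.17, 11.96 and 12.17 untreated and 11.32, 11.24 and 11.24 at 24 h (-0.83 ± 0.103, adjusted p = 0.000707), 19.5% of its gain. CYP51, a sterol demethylase, went from 12.40, 12.46 and 12.47 to 11.82, 12.02 and 11.82 (-0.56 ± 0.128, adjusted p = 0.0203; not called without untreated replicate 1, 2 or 3 or 24 h replicate 1 or 3 (adjusted p from 0.0516 to 0.0713)). HSD17B7, a sterol reductase lost in culture, was deepened (-0.83 ± 0.205, adjusted p = 0.0274; not called without untreated replicate 1 or 3 or 24 h replicate 3 (adjusted p from 0.0803 to 0.115)).

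In the glycolysis list 14 of 20 genes were above P0, where 42.4% of all genes were. Against untreated cells 1, PDK4, changed, where 4.42% of all genes rose and 5.67% fell. With the block 4 were lower, adding ALDOC (-0.62, adjusted p = 0.128 without and 0.00215 with it), GPI (-0.34, 0.115 and 0.0487) and PFKM (-0.38, 0.109 and 0.0192), all named after their values were seen. PDK4, a brake on pyruvate oxidation, was deepened, at 9.95, 10.32 and 10.25 in P0, 6.48, 6.83 and 7.57 untreated and 5.20, 5.21 and 5.71 at 24 h (-1.59 ± 0.284, adjusted p = 0.00573). LDHA, lactate dehydrogenase, read 11.41, 11.48 and 11.87 in P0, 14.91, 14.90 and 14.76 untreated and 14.83, 14.94 and 14.87 at 24 h (-0.25 to 0.29), and SLC2A1, the glucose transporter, was 3.55 above P0 with 0.25 ± 0.171, adjusted p = 0.429 for the response. Of 23 respiratory chain and TCA genes 19 were above P0, and against untreated cells limma called none of them, with 2 higher and 2 lower under the block.

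**Figure D5:**
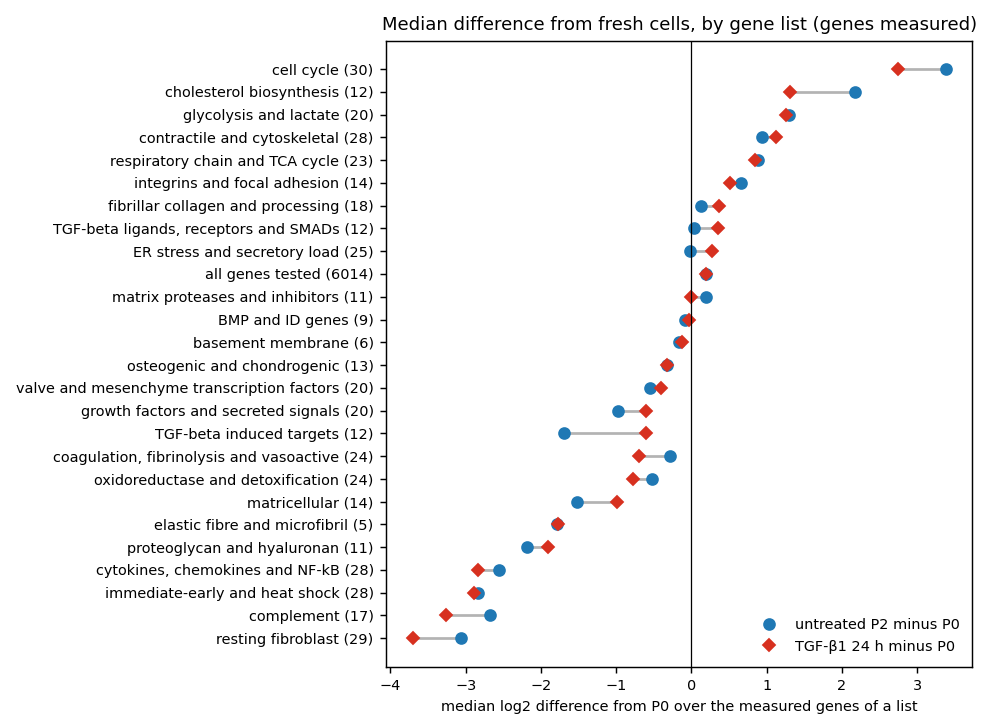
Median log2 difference from P0 over the measured genes of each list (number in brackets), for untreated P2 (circles) and 24 h of TGF-β1 (diamonds); both share the P0 arrays. TGF-β induced targets move from -1.70 to -0.61, resting fibroblast genes from -3.06 to -3.70 and cell cycle genes from 3.38 to 2.75.

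Gains that TGF-β1 raised further were led by SLC2A5, which spread widely in untreated cells at 8.98, 9.47 and 5.71 and reached 11.20, 10.75 and 10.55 (2.78 ± 0.76, adjusted p = 0.0442; not called without P0 replicate 1, 2 or 3 or untreated replicate 1 or 24 h replicate 1, 2 or 3 (adjusted p from 0.0504 to 0.122)). PLEK2, a pleckstrin of the cell cortex, went from 5.80, 6.26 and 5.74 to 7.98, 7.98 and 7.76 (1.97 ± 0.228, adjusted p = 0.000448) and was at least 10-fold above P0. ARG2, the mitochondrial arginase, rose (1.75 ± 0.389, adjusted p = 0.0167; not called without 24 h replicate 2 (adjusted p = 0.0584)), and of its 2 other probe sets 1 was called the opposite way against P0. PPOX and UROD, both enzymes of heme synthesis, also rose. PPOX read 7.43, 7.11 and 7.61 in P0, 8.93, 9.32 and 8.53 untreated and 10.62, 10.61 and 10.55 at 24 h (1.67 ± 0.183, adjusted p = 0.000367). UROD, not called in culture, read 8.82, 8.42 and 8.72 in P0, 9.11, 9.26 and 8.59 untreated and 10.64, 11.04 and 10.58 at 24 h (1.77 ± 0.194, adjusted p = 0.000366).

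In the ER stress and secretory list 6 of 25 were higher than untreated and none lower, or 15 and none with the block. Over all 6014 genes 4.42% were higher and 5.67% lower, or 609 and 780 genes with the block. SEC23A, a coat protein of vesicles leaving the ER, read 11.10, 11.05 and 11.30 in P0, 12.26, 12.29 and 12.03 untreated and 12.95, 13.03 and 12.77 at 24 h (0.72 ± 0.116, adjusted p = 0.00322). ASNS, asparagine synthetase, was 3.33 above P0, with 0.51 ± 0.178 over untreated (adjusted p = 0.105, with the block 0.0397). XBP1, the splicing-controlled factor of the unfolded protein response, was lost in culture and left, at 14.02, 13.90 and 13.92 in P0, 12.35, 12.15 and 12.24 untreated and 12.40, 12.42 and 12.50 at 24 h (-0.02 to 0.42).

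A further 131 genes, not called in culture, differed at 24 h from both P0 and untreated cells, 62 higher and 69 lower; on leaving out 1 array the total was 71 to 131, lowest without untreated replicate 3. F3, tissue factor, which starts coagulation, read 7.09, 7.29 and 7.32 in P0, 6.70, 7.85 and 6.19 untreated and 9.36, 9.80 and 10.67 at 24 h (8.15-fold over untreated, 3.03 ± 0.424, adjusted p = 0.00148). In the same arrays THBD, its counterpart that restrains thrombin, was under the control level, so against P0 the 2 genes stood 6.54-fold higher and at least 48.9-fold lower. BDNF, a neurotrophin, read 5.88, 5.42 and 5.76 in P0, 5.99, 6.50 and 4.95 untreated and 8.35, 7.72 and 8.77 at 24 h (2.47 ± 0.348, adjusted p = 0.00154). HTR1D, a serotonin receptor, came up from under the control level to 5.36, 5.58 and 5.14 (at least 1.71-fold, adjusted p = 0.000194). SMPDL3A, a phosphodiesterase, rose by 1.68 ± 0.35, adjusted p = 0.012, not called without untreated replicate 1 or 3 (adjusted p from 0.0512 to 0.0544). VEGFA, the endothelial growth factor, named after its value was seen, read 11.12, 11.08 and 10.98 in P0, 10.78, 11.15 and 10.10 untreated and 12.28, 12.19 and 12.48 at 24 h (1.64 ± 0.216, adjusted p = 0.000951).

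The new falls took in PPL, periplakin, at 7.37, 7.75 and 7.71 in P0, 8.81, 7.62 and 9.31 untreated and 5.27, 4.14 and 5.75 at 24 h (-3.53 ± 0.512, adjusted p = 0.00178). KCNE1, a potassium channel subunit, read 9.65, 9.78 and 9.73 in P0, 10.41, 9.74 and 11.37 untreated and 7.602, 7.47 and 7.34 at 24 h (-3.04 ± 0.37, adjusted p = 0.000651). ADM, adrenomedullin, a vasodilator peptide, read 11.72, 11.61 and 11.50 in P0, 11.77, 11.79 and 12.49 untreated and 9.38, 9.43 and 10.15 at 24 h (-2.37 ± 0.233, adjusted p = 0.00023). GBP1, an interferon-induced GTPase, read 8.10, 8.65 and 7.85 in P0, 8.12, 7.41 and 8.39 untreated and 6.24, 5.75 and 5.96 at 24 h (-1.99 ± 0.293, adjusted p = 0.00192). LOC102164640, an uncharacterised locus, fell too (-1.99 ± 0.421, adjusted p = 0.0132; not called without untreated replicate 3 or 24 h replicate 1 (adjusted p from 0.0562 to 0.0586), nor against P0 without 24 h replicate 1 (adjusted p = 0.0501)). In VCAM1, PPL, KCNE1, ADM and GBP1 every 24 h array lay below every array of P0 and of untreated cells. These genes were picked as the most changed, so that separation largely follows from the rule.

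The 8 h arrays show which of these responses were already called by then. Of the restored losses, 19 of the 41 partial and 6 of the 12 full ones were already called higher at 8 h than untreated, and of the 83 deepened 33 were already called lower. Over all 6014 genes 165 were higher and 171 lower. Both times are set against the same untreated arrays, so part of this sharing of direction is built in. A missing call at 8 h does not show that a response had not begun. LIF read 6.55, 6.47 and 7.19 at 8 h and 8.06, 7.71 and 8.54 at 24 h, C1QTNF3 8.76, 8.17 and 8.13 and 10.16, 9.45 and 8.90, and ASPN 11.74, 11.24 and 11.71 and 12.97, 12.58 and 12.77. PMEPA1 was at 13.39, 13.43 and 13.73 at 8 h, SHAS2 at 8.90, 8.87 and 9.03 and F3 at 9.11, 9.87 and 10.26, each overlapping its 24 h arrays. THBD was at 4.26, 4.63 and 4.26 at 8 h, and ANG at 8.67, 8.23 and 8.46, still well above its 24 h values.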

How the data were processed

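Total RNA of 12 samples was labelled with a 3' IVT kit and hybridised to Affymetrix porcine arrays, per the labels' protocols. The deposited values are log2 expression per probe set; the submitters' processing notes name GCRMA, its version not stated, and the labels name no scan date or batch. Of 23999 probe sets, 64 controls were left out, and 17638 over log2 4 in at least 3 of 12 arrays were tested. Symbols came from the platform annotation: 10069 probe sets had 1 symbol (9961 found in the RefSeq table, 0 updated), 198 several and 13732 none. A gene is its single-symbol probe set with the highest mean, which gave 6014 genes, 1782 with more than 1 probe set.

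One model with a mean for each of the 4 groups covered all 12 arrays (limma 3.58.1, R 4.3.3, moderated with eBayes; 8 residual and 3.745 prior degrees of freedom; two-sided; Benjamini-Hochberg over tested probe sets; called under 0.05). Comparisons of P2 groups with P0 share the P0 arrays, and both uses of the untreated group share its arrays, so their values are set side by side without a test of overlap. A fold against a group mean under the control level of 4.58 uses that level. The fits were tested on simulated data with known changes.

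Replicate numbers pair the P2 arrays but not P0 with P2: after removing group means, untreated and 24 h arrays of the same number correlated at 0.348 to 0.508 (3 pairs) and of different numbers at -0.408 to 0.0796, while P0 and 24 h arrays of the same number correlated at -0.0237 to 0.0117. The fit reported has no pairing; values with the P2 block stand beside named genes and list counts that it changes, as far as the text describes them.

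The members and lists were chosen with earlier results of these data known. Named genes are the 8 largest rises and 8 largest falls against P0 without overlap, the 12 most restored, 12 most deepened and 8 deepest left losses, the 6 most changed of each class of gain and of each direction of new change, up to 4 called members of each list by size, and a fixed panel, of which COL1A1 and CCN2 were not on a single-symbol probe set that passed. Others are said to be named after their values were seen. Alternatives tried were other filters, normalisations, variance models, blocks, sample sets and gene summaries.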

Additional observations from a re-analysis of the deposited data

How the results depend on the processing

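Counts of calls against P0 stayed within 1.5 times of those reported under every alternative run. Counts of the response to TGF-β1 did not. With the replicate number as a block in the P2 arrays, 24 h against untreated gave 3519 probe sets in place of 1498, with 108 losses restored and 180 deepened; with the replicate block over all 12 arrays 135 were deepened, and the cause of the gap was not tested. Without the P2 arrays numbered 3 there were 762 probe sets, 29 losses restored, 21 gains raised further and 67 new changes. With only arrays numbered 1 and 2, an alternative chosen after seeing the data, these were 784, 28, 22 and 63, and 55 losses were deepened. With culture changes of any size, which admits more genes, 94 losses were restored, 130 deepened and 1233 left, and 140 gains were reversed and 102 raised. With losses chosen from 8 h against P0, 126 were deepened.

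On leaving out each array in turn, probe sets called ranged from 10254 to 11012 for 24 h against P0, 9577 to 10722 for untreated against P0 and 800 to 1398 for 24 h against untreated. Losses restored ranged from 30 to 55, deepened from 54 to 79 and left from 630 to 683. Gains reversed ranged from 48 to 107 and raised from 28 to 47, and new changes from 71 to 131.

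Of 7292 values of named genes under the alternatives, 7038 were counted as the same, 105 gained the call, 145 lost it and 4 reversed. Counted as the same were calls kept in direction, and values called in neither fit, whatever their direction. Some could not differ: culture changes of any size and losses chosen from 8 h reuse the reported fit. The block in the P2 arrays also keeps the reported values of 24 h against P0. The 4 reversed with the median over a gene's probe sets in 24 h against P0, as these probe sets differ within a gene. ACTG2 went to 0.023 (limma, adjusted p = 0.915) and COL1A2 to 1.29 (adjusted p = 9.93e-07). LAMC1 went from -0.69 to 0.76 (adjusted p = 0.00107). LOXL4 went from 5.04 (limma, adjusted p = 9.34e-09) on its brightest probe set to -0.11 (adjusted p = 0.684). The other LOXL4 probe sets had means under the control level in every group, so its median is not a measured level. Levels under 4.58 are not separable from the controls, so further falls of genes already there could not be measured.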
